A study of Mus musculus with 22 samples.

Results

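RNA polymerase II (PolII) occupancy was followed at 9 mouse genes of red cell maturation, taken by symbol from the GENCODE vM1 annotation of mm9, out of 22350 protein-coding genes on 20 chromosomes. They are Klf1 and Nfe2, which encode erythroid transcription factors, Epor, Tfrc and Slc25a37, which serve erythropoietin signalling and iron supply, Slc4a1, which encodes the main anion exchanger of the red cell membrane, and the adult globin genes Hba-a1, Hba-a2 and Hbb-b1. The PolII ChIP-seq peaks that overlapped each gene or the 5 kb on either side of it were collected from 18 libraries, and each peak was ranked by its fold enrichment within its own list, with rank 1 for the strongest.

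The libraries came from uninduced G1E-ER4 cells, a mouse proerythroblast line that lacks GATA1 and carries a GATA1 that is switched on only by hormone, so that all groups shared the absence of active GATA1. Both Ctcf alleles in these cells carried a C-terminal auxin-inducible degron fused to mCherry, and the plant protein that mediates degradation was expressed from a retroviral vector. Cells were arrested in prometaphase with 200 ng/ml nocodazole for 7 to 8.5 h. Auxin was added in the last part of the arrest to remove CTCF, and controls had no auxin. According to the methods, the release medium of the auxin samples also held auxin, as stated for early-G1 and mid-G1. Cells were harvested at the arrest (prometaphase) or after a release of 60 min for early-G1, of 120 min for mid-G1 and of 240 min for late-G1. After harvest they were crosslinked and sorted by flow cytometry. Mid-G1 had 3 libraries per condition and each of the other stages 2, numbered as in the labels, so that the late-G1 control libraries are replicates 2 and 3. The culture medium contained kit ligand and erythropoietin, and all libraries came from this 1 cell line. The design text calls the libraries biological replicates, and the p-values measure the spread between them.

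In red cell precursors GATA1 and KLF1 bind promoters and distant enhancers and switch on globin, heme, membrane and iron genes as the cells mature. NF-E2, a heterodimer of the Nfe2 product p45 with a small Maf protein, binds the enhancers of the beta-globin locus control region and the alpha-globin regulatory elements, which lie in introns of the neighbouring gene Nprl3. Erythropoietin acts through its receptor EPOR, transferrin-bound iron enters through the receptor encoded by Tfrc, and mitoferrin-1, encoded by Slc25a37, carries iron into mitochondria. In the absence of active GATA1 these cells stay at the proerythroblast stage, before globin genes are transcribed at high level.

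The prometaphase lists held 2414 to 3918 peaks and the post-mitotic lists 50594 to 117125, at relative depths of 4.93 to 5.95 and 4.54 to 13.3 reads per kb. Mid-G1 control replicate 1 was the shallowest library and late-G1 control replicate 3 the deepest. A gene without a listed peak may still hold PolII below the calling threshold, and the share of cells with PolII at a gene and the amount per cell cannot be told apart in these bulk samples. Of 10 erythroid marker genes, 8 had a peak over a transcription start site (TSS) in all 14 post-mitotic libraries, against 32.0% of all protein-coding genes. Slc4a1 alone of these markers had none in any of the 14. Klf1, Epor, Tfrc and Slc4a1 are markers here and also belong to the 9 genes, so the marker counts are not independent of them. A TSS peak in all 14 libraries was found for 1 of 7 megakaryocyte markers (Gp1ba) and for none of 6 mast cell, 8 neutrophil and monocyte and 8 lymphocyte markers. Erythroid markers with a TSS peak numbered 8 to 9 per control library and 9 per auxin library, and megakaryocyte markers 1 to 3 and 2 to 3.

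Of the 9 genes, 6 had a peak within 5 kb in all 14 post-mitotic libraries (Klf1, Nfe2, Epor, Tfrc, Slc25a37 and Hba-a1), where 48.0% of all protein-coding genes did. A peak over a TSS was present in all 14 libraries at 4 genes (Klf1, Nfe2, Epor and Tfrc), against 32.0% of all genes, and at Slc25a37 in 13. The peak near Hba-a1 lay outside the gene in every library. Hbb-b1 had a peak within 5 kb in 5 of 14 libraries, and Hba-a2 and Slc4a1 in none of 18, where 42.4% of all genes had none. In all 4 prometaphase libraries, peaks within 5 kb were listed at Tfrc and Nfe2, against 5.89% of genes, and a TSS peak at Tfrc alone, against 1.87% of genes. The genes thus fell into 5 with PolII over the gene itself, 1 with PolII beside the gene, 1 detected in a minority of libraries and 2 without a peak.

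**Figure D1:**
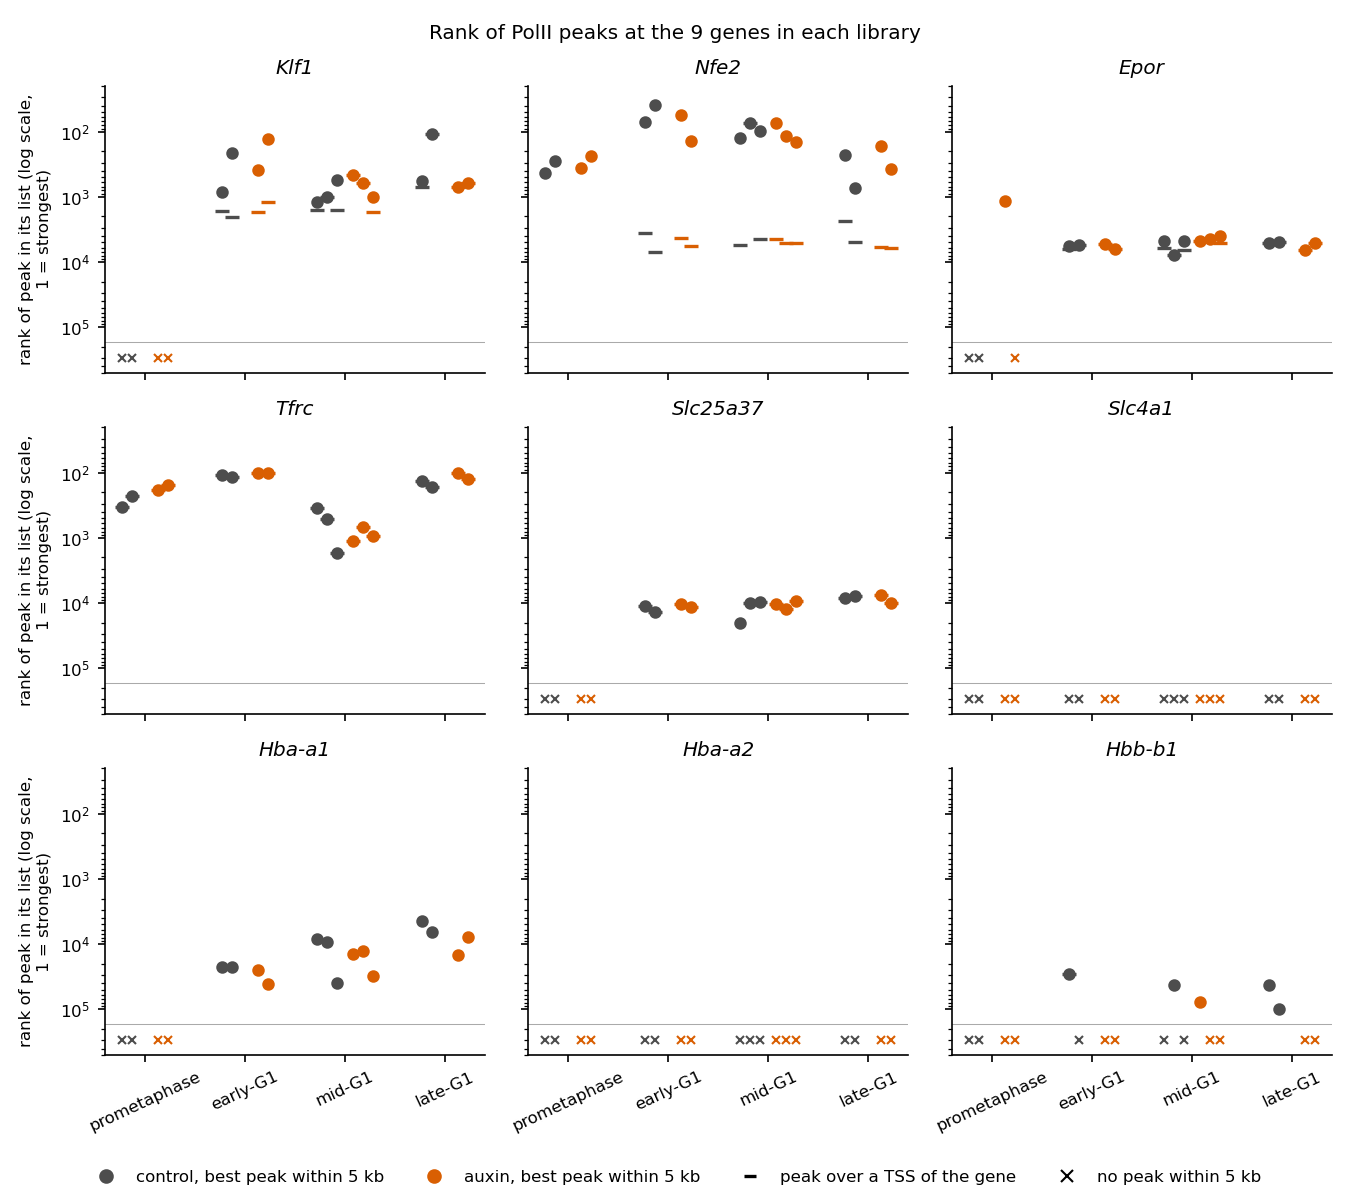
Rank of the PolII peaks at the 9 genes in 18 libraries, by stage (x axis) and condition (grey, control; orange, auxin). The y axis is the rank within the list on a log scale, with 1 at the strong end; circles are the best peak within 5 kb, dashes the peak over a TSS and crosses libraries without a peak within 5 kb. Tfrc circles lie between 102 and 167 in early-G1 and late-G1 and between 349 and 1714 in mid-G1, and the Hba-a2 and Slc4a1 panels hold crosses alone.

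Klf1 (ENSMUSG00000054191.7, chr8:87425827-87429194 of mm9, plus strand) encodes the erythroid Krüppel-like factor that drives adult beta-globin and many membrane genes. Its TSS was covered in all 14 post-mitotic libraries and in no prometaphase library. The RefSeq promoter, from 250 bases before to 50 after the start, is printed because it holds a GATA word and the annotated TSS had a peak without active GATA1. The promoter was not placed on mm9, so PolII over these bases was not checked. It lies at chr8:84901732-84902031 of GRCm38.p6 on the plus strand, and the capitals mark TGATAA on the opposite strand (TTATCA as printed), which starts at position -80 with the TSS as 0.

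Klf1 promoter: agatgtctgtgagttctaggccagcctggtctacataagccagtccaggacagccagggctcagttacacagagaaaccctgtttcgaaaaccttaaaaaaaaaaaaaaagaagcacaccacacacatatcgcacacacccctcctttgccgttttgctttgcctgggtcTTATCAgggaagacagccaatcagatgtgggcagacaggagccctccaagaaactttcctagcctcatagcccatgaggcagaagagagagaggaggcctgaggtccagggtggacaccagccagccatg

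Within the 300 bases this was the sole match to the 5 words searched on both strands. These were the GATA words AGATAA and TGATAA, the KLF-type word CCNCNCCC, the TATA word TATAAA and the NF-E2 core word TGAGTCA. Of 32619 RefSeq promoters of this length, 9.0% hold TGATAA and 11.2% AGATAA, and a match is a description of letters, not of binding. The peak over the TSS ranked 1634 and 2050 in the early-G1 control libraries and 1706 and 1208 with auxin. In mid-G1 it ranked 1597, 1008 and 1573 in control and 456, 625 and 1683 with auxin. In late-G1 it ranked 717 and 108 in control and 707 and 623 with auxin. All 4 late-G1 libraries thus ranked the peak above all 4 early-G1 libraries, while the mid-G1 libraries spread across both.

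From early-G1 to late-G1 the mean TSS rank at Klf1 went from 1650 to 539, a change in −log2 rank of 1.92 ± 0.50 (SE, 95% interval 0.86 to 2.97, limma adjusted p = 0.0198), where a change of 1 is a rank number 2 times smaller. Klf1 was the only one of the 4 genes with a TSS peak in all 14 libraries that passed this test, in which 12.0% of 7154 genes passed, and the only one whose early-G1 and late-G1 libraries did not overlap, as at 18.9% of genes. The value rested in part on late-G1 control replicate 3, the deepest library. There the peak over Klf1 was a merged block of 16959 bp that also covered the TSS of Dnase2a, which starts 6632 bp downstream and encodes the acid deoxyribonuclease that breaks down expelled erythroid nuclei, and its summit lay 11425 bp from the Klf1 TSS. Without this library the change was 1.23 ± 0.41 (SE, limma adjusted p = 0.0624), and the groups still did not overlap. In control cells alone the change was 2.72 ± 0.71 (limma adjusted p = 0.0456), or 1.35 ± 0.63 (limma adjusted p = 0.328) without this library, which leaves 1 late-G1 control library that is assumed to vary like the other groups. With auxin alone it was 1.11 ± 0.71 (limma adjusted p = 0.423).

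The best peak within 5 kb of Klf1 was often not its own, and covered the Dnase2a TSS in 9 of 14 libraries. It ranked 843 and 213 in early-G1 control, 382 and 132 in early-G1 auxin, 578 and 108 in late-G1 control and 707 and 623 in late-G1 auxin libraries. The groups overlapped, and the change from early-G1 to late-G1 was −0.40 ± 0.54 (SE, 95% interval −1.55 to 0.74, limma adjusted p = 0.682). By the TSS peak Klf1 stood at position 739 of 7154 genes (the top 10.3%), and PolII peaks covered 67.8% of the gene on average over the 14 libraries. The median gene with a TSS peak in all 14 was covered over 14.9%, with quartiles of 4.79% and 38.3%.

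Nfe2 (ENSMUSG00000058794.6, chr15:103078643-103088834, minus strand) encodes p45, the erythroid and megakaryocytic subunit of NF-E2. PolII covered 87.8% of this gene on average, the highest share of the 9 genes. The strongest peak did not lie at a start site. In 13 of 14 post-mitotic libraries it began between 8449 and 8587 bp downstream of the most upstream TSS. Its summit lay between 10367 and 10787 bp, beyond the 3′ end of this gene of 10192 bp, which the peak overlapped. In mid-G1 control replicate 2 it was part of a block of 11222 bp that reached back over a TSS. The neighbour Hnrnpa1 runs towards Nfe2 from the opposite strand and ends 14389 bp from the Nfe2 TSS. Which of the 2 genes the PolII in this peak belonged to was not tested.

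This 3′ peak was among the strongest of each list. In early-G1 it ranked 71 and 39 in control and 56 and 141 in auxin libraries. In mid-G1 it ranked 125, 73 and 97 in control and 73, 116 and 146 with auxin. In late-G1 it ranked 227 and 735 in control and 166 and 380 with auxin. The 4 late-G1 libraries were all weaker than the 4 early-G1 libraries, and the mid-G1 libraries lay with early-G1 or just below it.

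The mean rank of the Nfe2 3′ peak went from 77 in early-G1 to 377 in late-G1, a change in −log2 rank of −2.23 ± 0.43 (SE, 95% interval −3.14 to −1.31, limma adjusted p = 0.00324). In control cells alone it was −2.96 ± 0.61 (limma adjusted p = 0.0152), and with auxin alone −1.50 ± 0.61 (limma adjusted p = 0.178). Its fold enrichment was 70.84 to 90.34 in early-G1 and 45.57 to 62.61 in late-G1 libraries. On the scale of log2 fold enrichment centred in each library, the change was −0.49 (limma adjusted p = 0.0604). At position 157 of 10733 genes, Nfe2 had the best place of the 9 genes by the peak within 5 kb.

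Peaks over one of the 10 annotated Nfe2 TSSs ranked lower and did not follow that course. They ranked 3545 and 6982 in early-G1 control and 4287 and 5761 with auxin. In late-G1 they ranked 2384 and 4868 in control and 5792 and 6183 with auxin. In mid-G1 they ranked 5580, 73 and 4442 in control, where 73 is the merged block, and 4379, 5105 and 5091 with auxin. The early-G1 and late-G1 ranks overlapped, with a change of 0.14 ± 0.94 (SE, 95% interval −1.85 to 2.13, limma adjusted p = 0.943).

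In prometaphase the Nfe2 3′ peak was listed in all 4 libraries, while no TSS of the gene was covered. It ranked 435 and 285 in control and 359 and 239 in auxin libraries, with fold enrichments of 12.28, 15.22, 12.76 and 14.92. The conditions overlapped, and the summits, 10057 to 10544 bp from the TSS, lay near those seen after mitosis.

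**Figure D2:**
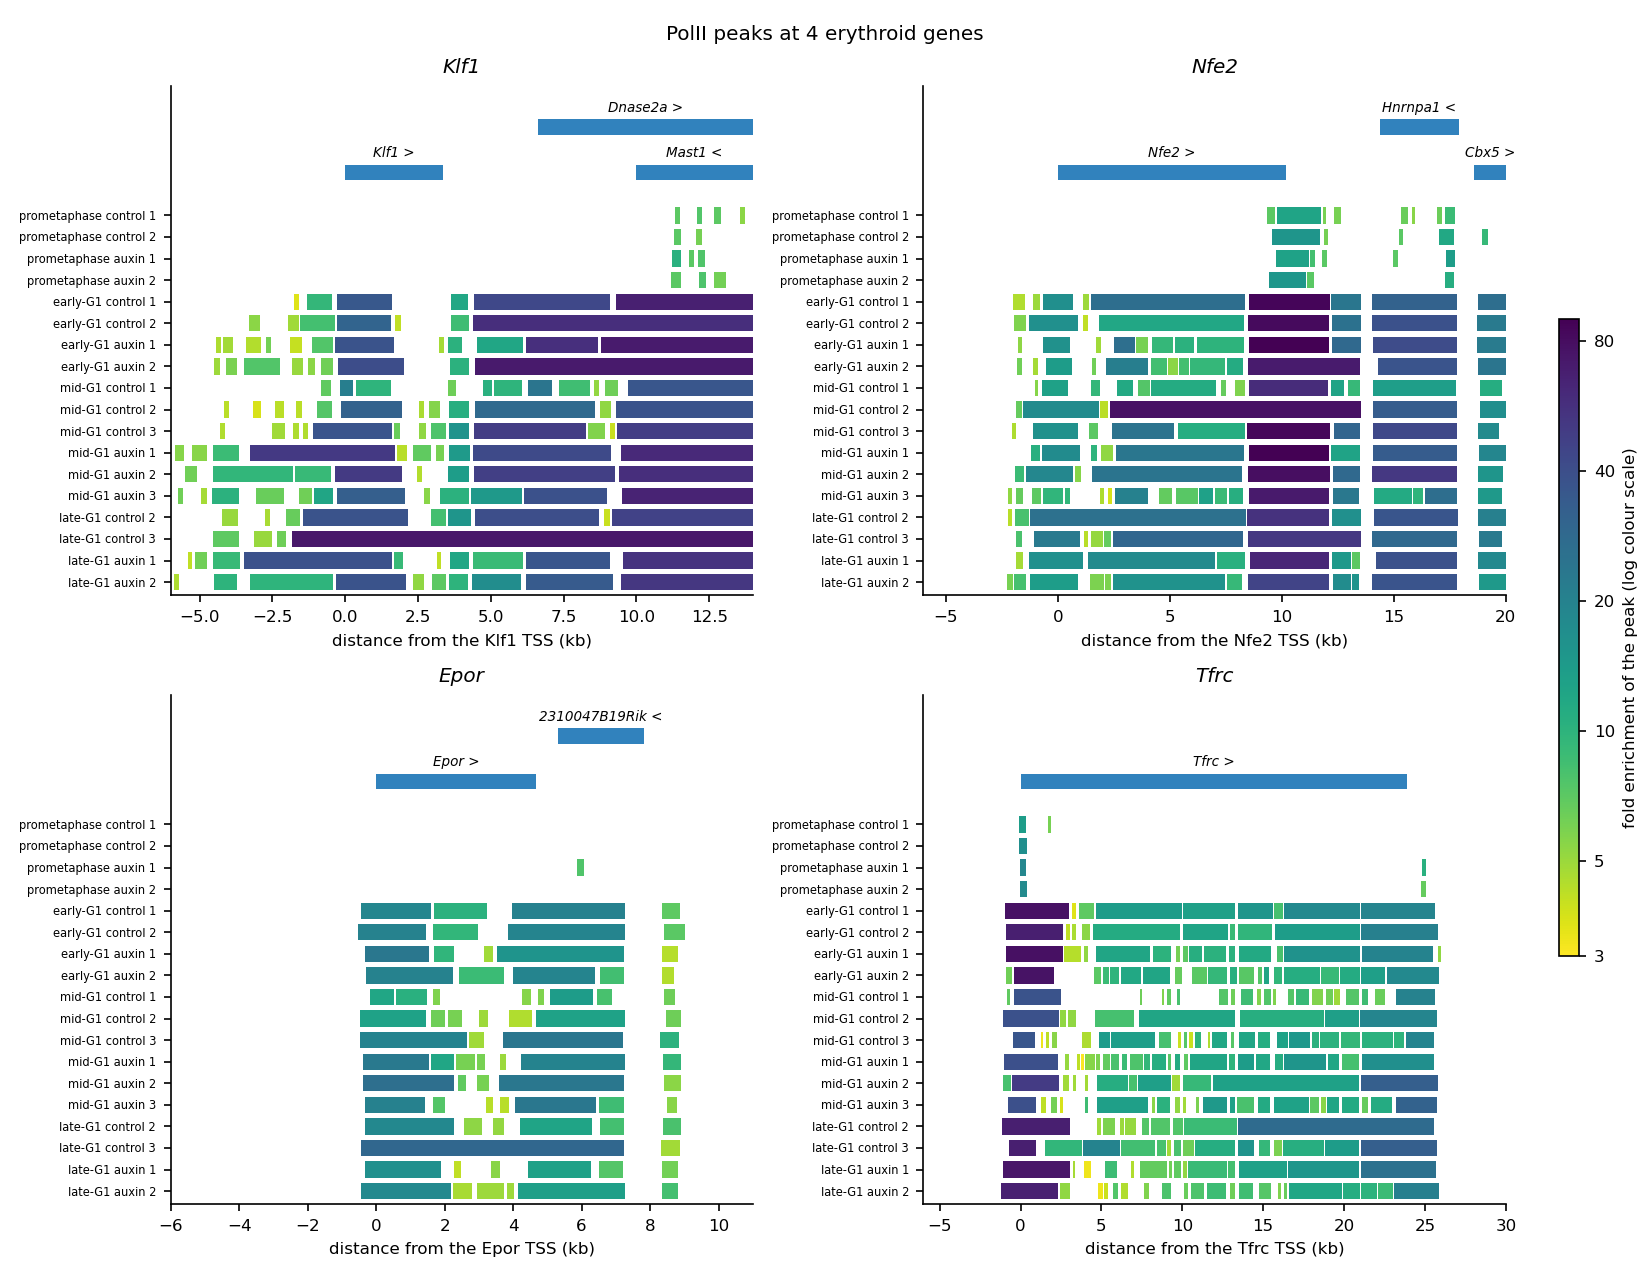
PolII peaks around Klf1, Nfe2, Epor and Tfrc in 18 libraries, 1 row per library. The x axis is the distance from the most upstream TSS in kb in the direction of the gene, bars are peaks coloured by fold enrichment (log colour scale), and blue boxes are protein-coding genes, with > for the direction of the named gene and < for the opposite one. The strongest Nfe2 peak lies at the 3′ end of the gene, the strongest Tfrc peak at its start, and the Klf1 TSS peak runs into the peaks over Dnase2a in late-G1 control replicate 3.

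Epor (ENSMUSG00000006235.5, chr9:21763343-21768020, minus strand) encodes the receptor through which erythropoietin keeps erythroid precursors alive. Its promoter is printed because it holds both a GATA word and KLF-type words and the annotated TSS had a peak in all 14 post-mitotic libraries. The RefSeq sequence lies at chr9:21963527-21963826 of GRCm38.p6, minus strand. Capitals mark AGATAA on the opposite strand (TTATCT as printed) from position -54, and 2 overlapping matches to CCNCNCCC at each of 2 places, from -124 and -122 and from -28 and -26.

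Epor promoter: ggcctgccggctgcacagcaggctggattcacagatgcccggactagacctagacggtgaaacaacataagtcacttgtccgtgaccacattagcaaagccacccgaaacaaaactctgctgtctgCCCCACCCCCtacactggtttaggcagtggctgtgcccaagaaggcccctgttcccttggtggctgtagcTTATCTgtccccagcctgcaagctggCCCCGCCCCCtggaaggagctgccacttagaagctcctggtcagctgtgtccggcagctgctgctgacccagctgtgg

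CCNCNCCC occurs in 49.8% of promoters and is therefore a common word. The Epor TSS peak ranked 6333 and 5420 in early-G1 control and 5269 and 6279 in early-G1 auxin libraries. In mid-G1 it ranked 6158, 7779 and 6442 in control and 4701, 4451 and 5091 with auxin. In late-G1 it ranked 5138 and 4884 in control and 6492 and 5027 with auxin. The ranks ran from 4451 to 7779 and the stages overlapped.

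The change of the Epor TSS peak from early-G1 to late-G1 was 0.12 ± 0.24 (SE, 95% interval −0.40 to 0.64, limma adjusted p = 0.820). A change of 1 in −log2 rank, up or down, lay outside this interval. The best peak within 5 kb covered the TSS in 9 libraries, among them late-G1 control replicate 3, where it was a block of 7672 bp with its summit 5301 bp from the TSS. In the other 5 the summit lay beyond the 3′ end of the gene, 5298 to 5880 bp from the TSS and near the 3′ end of the convergent gene 2310047B19Rik, and in 4 of these the peak also overlapped the end of Epor. Peaks covered 76.4% of the gene on average, and by the TSS peak Epor stood at position 4952 of 7154 genes. Prometaphase auxin replicate 1 listed a peak 5969 bp from the TSS, of rank 1169 and fold enrichment 7.70, and the other 3 prometaphase libraries listed none within 5 kb.

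Tfrc (ENSMUSG00000022797.9, chr16:32609006-32632880, plus strand) encodes the transferrin receptor, whose messenger RNA is stabilised when cells need iron. Of the 4 genes with a TSS peak in all 14 libraries it had the best place, at position 216 of 7154 (the top 3.02%). The downstream one of its 2 RefSeq promoters is printed, since Tfrc alone of the 9 genes was detected at its TSS in all 18 libraries. It lies at chr16:32608872-32609171 of GRCm38.p6, plus strand. Capitals mark CCNCNCCC on the opposite strand, 2 overlapping matches from -188 and -186 and 1 from 3.

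Tfrc promoter: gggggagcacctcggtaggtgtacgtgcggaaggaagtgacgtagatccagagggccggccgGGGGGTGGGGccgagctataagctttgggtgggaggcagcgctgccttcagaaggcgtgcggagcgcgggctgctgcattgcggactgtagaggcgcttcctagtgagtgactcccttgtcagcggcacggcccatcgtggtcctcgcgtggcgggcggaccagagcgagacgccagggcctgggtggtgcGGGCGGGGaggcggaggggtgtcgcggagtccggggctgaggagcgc

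In prometaphase the Tfrc peak ranked 339 and 230 in control and 184 and 153 in auxin libraries, with fold enrichments of 13.67, 16.85, 18.70 and 18.01. The lists behind these ranks held 3918 and 3221 peaks in control and 3539 and 2414 with auxin, and the conditions were not tested there. These peaks were 375 to 510 bp wide, and all peaks in the gene together covered 1.53% to 2.24% of it. After mitosis the peak at the TSS was 1331 to 4221 bp wide and peaks covered 81.9% of the gene on average.

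In early-G1 the Tfrc TSS peak ranked 107 and 118 in control and 103 and 102 in auxin libraries. In mid-G1 it ranked 349, 513 and 1714 in control and 1118, 679 and 934 with auxin. In late-G1 it ranked 133 and 167 in control and 102 and 124 with auxin. All 6 mid-G1 libraries were weaker than all 8 others. This order was noticed in the values and was not tested. It held at 1.84% of the 10733 genes with a peak within 5 kb in all 14 libraries.

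The mid-G1 fold enrichment at Tfrc was 36.23 to 49.74, against 67.07 to 78.38 in the early-G1 and late-G1 libraries. Mid-G1 depths, 4.54 to 10.2 reads per kb, overlapped those of early-G1, 7.53 to 11.8, and late-G1, 8.01 to 13.3, and each stage had its own input, so that stage and input cannot be told apart. Between early-G1 and late-G1 the mean rank was 108 and 132, a change of −0.27 ± 0.40 (SE, 95% interval −1.11 to 0.57, limma adjusted p = 0.728), with overlapping groups.

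Slc25a37 (ENSMUSG00000034248.6, chr14:69859908-69903160, minus strand) encodes mitoferrin-1, the iron importer of erythroid mitochondria. PolII stood at its start with little over the gene. In 13 of 14 libraries the best peak covered the TSS, and in the shallowest library, mid-G1 control replicate 1, a peak of rank 20482 began 486 bp inside the gene. The peak ranked 11263 and 13644 in early-G1 control and 10326 and 11344 with auxin. In late-G1 it ranked 8400 and 7730 in control and 7639 and 9890 with auxin. These ranks did not overlap between the stages, but as a percent of each list they did, with 10.1% to 13.2% in early-G1 and 6.60% to 13.3% in late-G1. The change of 0.47 ± 0.28 (SE, 95% interval −0.12 to 1.06) did not pass the test (limma adjusted p = 0.294).

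In mid-G1 the Slc25a37 peak ranked 20482, 9963 and 9768 in control and 10416, 12199 and 9159 with auxin. Peaks covered 1.82% of this gene of 43253 bp, below the lower quartile of 4.79% for genes with a TSS peak in all 14 libraries. No prometaphase library listed a peak within 5 kb.

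Slc4a1 (ENSMUSG00000006574.9, chr11:102210138-102227517, minus strand) encodes band 3, the chloride and bicarbonate exchanger that anchors the red cell membrane skeleton. It had no peak within 5 kb in any of the 18 libraries. Repeated sequence was low there: of the words of 31 bases, which are shorter than the reads, 3.70% in the gene and 0% within 250 bp of the TSS occurred more than once in mm9. Of 18 other genes of the red cell membrane and cytoskeleton, Aqp1 was the sole gene that also had no peak within 5 kb in any library.

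The alpha-globin genes Hba-a1 (ENSMUSG00000069919.6, chr11:32183511-32184465) and Hba-a2 (ENSMUSG00000069917.6, chr11:32196489-32197301), both on the plus strand, encode the same adult chain of hemoglobin. Neither gene body nor TSS held a peak in any library.  Of the 31-base words, 96.8% in Hba-a1 and 96.0% in Hba-a2 occurred more than once in mm9, and within 250 bp of the TSS 87.5% and 100% did. The 2 genes share 79.2% of the words of Hba-a1 and 93.6% of those of Hba-a2, and the authors removed reads of low mapping quality. The part of this filter in the missing peaks was not tested.

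The Hba-a1 promoter is printed to show this copy: over 297 of the 300 bases, after a shift of 3, the RefSeq promoter of Hba-a2 is identical at 297 positions. It lies at chr11:32283422-32283721 of GRCm38.p6, plus strand, and capitals mark TGATAA from position -183, the sole match to the 5 words.

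Hba-a1 promoter: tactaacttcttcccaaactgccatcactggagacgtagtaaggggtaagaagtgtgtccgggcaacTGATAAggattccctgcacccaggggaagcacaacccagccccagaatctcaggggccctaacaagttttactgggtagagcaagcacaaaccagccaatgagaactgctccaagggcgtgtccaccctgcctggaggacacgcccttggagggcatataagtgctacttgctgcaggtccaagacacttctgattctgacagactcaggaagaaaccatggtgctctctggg

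PolII was instead listed beside Hba-a1, downstream of its 3′ end and up to the theta-globin gene Hbq1b, which starts 3454 bp from the Hba-a1 TSS. The merged peaks spanned chr11:32184622-32187153 of mm9, a stretch that takes in the Hbq1b TSS. They were present in all 14 post-mitotic libraries, with a median fold enrichment of 9.63, and in no prometaphase library. The 300 bases at the median summit of the strongest peak in each library are printed as the place where PolII stood closest to an alpha-globin gene, at chr11:32185524-32185823, plus strand. They hold none of the 5 words.

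Alpha-globin peak: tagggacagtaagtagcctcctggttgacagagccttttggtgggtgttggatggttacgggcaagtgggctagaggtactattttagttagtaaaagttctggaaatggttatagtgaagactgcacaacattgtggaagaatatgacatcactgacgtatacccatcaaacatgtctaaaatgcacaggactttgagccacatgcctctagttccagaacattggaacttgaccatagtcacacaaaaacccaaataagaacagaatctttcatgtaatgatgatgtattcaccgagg

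In early-G1 this peak ranked 22257 and 22112 in control and 24748 and 41367 in auxin libraries. In mid-G1 it ranked 8451, 9413 and 39512 in control and 14340, 12756 and 30355 with auxin, and in control replicate 3 the best peak was one over the Hbq1b TSS. In late-G1 it ranked 4393 and 6564 in control and 14776 and 7914 with auxin, and in control replicate 3 (6564) it also covered the Hbq1b TSS. The 4 late-G1 libraries were all stronger than the 4 early-G1 libraries, and the mid-G1 libraries ran across both ranges.

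The mean rank of the peak beside Hba-a1 went from 27621 to 8412, a change in −log2 rank of 1.81 ± 0.45 (SE, 95% interval 0.84 to 2.77, limma adjusted p = 0.0158). Hbq1b, whose TSS was covered in 9 of 14 libraries, has the same best peaks and the same values, so the peak cannot be assigned to one gene. Within conditions the change was 2.05 ± 0.64 (limma adjusted p = 0.0943) in control and 1.57 ± 0.64 (limma adjusted p = 0.183) with auxin. The call was lost without early-G1 control replicate 1 (limma adjusted p = 0.0514), early-G1 auxin replicate 2 (0.0682) or late-G1 auxin replicate 2 (0.0726), with changes of 1.80, 1.62 and 1.58. It was also lost with normal scores of the rank (0.72, limma adjusted p = 0.102) and by rank among genes (0.51, limma adjusted p = 0.0662). In the stretch spanned by these peaks 37.1% of the 31-base words were repeated.

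Upstream of the alpha-globin genes PolII was listed within Nprl3, which runs away from them. Peaks over the Nprl3 start had a median rank of 1428 and a median fold enrichment of 33.5, with the summit 8832 bp upstream of the embryonic globin gene Hba-x. Intronic peaks 30865 and 24917 bp upstream of Hba-x, in the gene that harbours the alpha-globin enhancers, were present in all 14 post-mitotic libraries at median ranks of 23127 and 35485. No peak lay within 5 kb of Hba-x, Hba-a2 or Hbq1a in any library, and no prometaphase library listed a peak in this stretch.

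Hbb-b1 (ENSMUSG00000052305.5, chr7:110975048-110976610, minus strand) encodes the major adult beta chain. A peak lay within 5 kb in 5 of 14 post-mitotic libraries, 4 control and 1 auxin. They were early-G1 control replicate 1 (rank 28374, fold enrichment 6.95), mid-G1 control replicate 2 (43105, 5.18), mid-G1 auxin replicate 1 (77157, 4.64) and late-G1 control replicates 2 (42543, 5.16) and 3 (97797, 4.09). The first of these was the only one that covered the TSS. In the gene 70.3% of the 31-base words were repeated and 70.3% were shared with Hbb-b2, while within 250 bp of the TSS 2.97% were repeated.

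In the beta-globin cluster the steadiest PolII peak was far upstream, in the direction of the locus control region. It lay with its summit 7833 bp upstream of the embryonic gene Hbb-y, at chr7:111008664-111010559, in all 14 post-mitotic libraries at a median rank of 20305 and a median fold enrichment of 7.89. The 300 bases at its median summit, chr7:111009437-111009736 of mm9, are printed in the direction of the globin genes because they hold the NF-E2 core word TGAGTCA at positions 123 and 133 from the first base, and CCNCNCCC at 58 and 63, both in capitals.

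Beta-globin upstream peak: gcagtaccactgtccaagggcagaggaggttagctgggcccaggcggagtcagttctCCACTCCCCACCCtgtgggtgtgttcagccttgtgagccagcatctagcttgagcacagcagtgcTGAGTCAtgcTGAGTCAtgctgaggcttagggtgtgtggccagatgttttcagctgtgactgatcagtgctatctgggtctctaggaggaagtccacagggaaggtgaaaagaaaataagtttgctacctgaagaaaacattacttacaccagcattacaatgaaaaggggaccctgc

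TGAGTCA occurs in 5.59% of the 80106 windows of 300 bases at peak summits of late-G1 control replicate 2 and CCNCNCCC in 26.7%. Further peaks lay 17603 bp upstream of Hbb-y in 13 of 14 libraries, 6082 bp upstream in 9, and 4314 bp downstream of the Hbb-b2 start in 13. Hbb-y, Hbb-bh1 and Hbb-bh2 had no peak within 5 kb in any library. As at the alpha-globin genes, no prometaphase library listed a peak in the cluster.

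**Figure D3:**
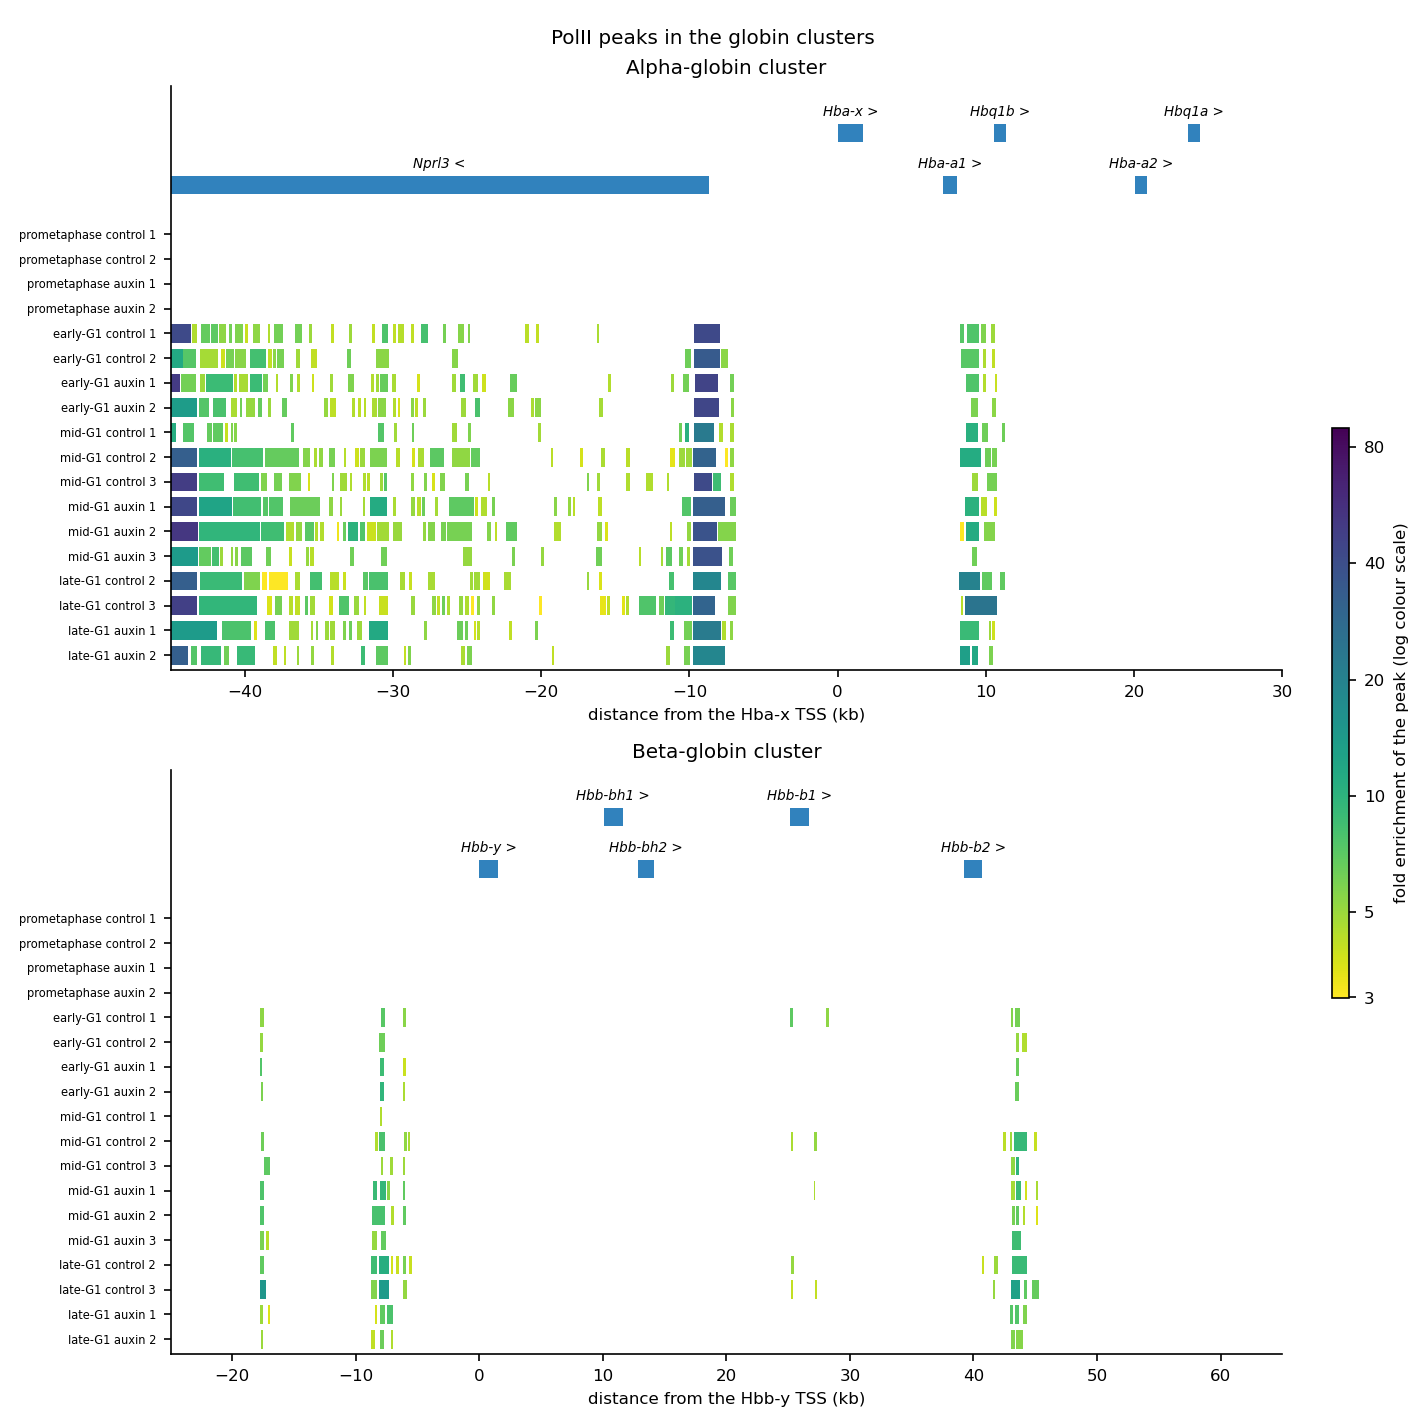
PolII peaks in the alpha-globin and beta-globin clusters in 18 libraries, 1 row per library. The x axis is the distance from the Hba-x or Hbb-y TSS in kb in the direction of the globin genes, bars are peaks coloured by fold enrichment (log colour scale), and blue boxes are genes. No bar lies over Hba-a1, Hba-a2 or Hba-x, peaks downstream of Hba-a1 and up to the Hbq1b start are present in 14 of 14 post-mitotic libraries, and the 4 prometaphase rows are empty.

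**Figure D4:**
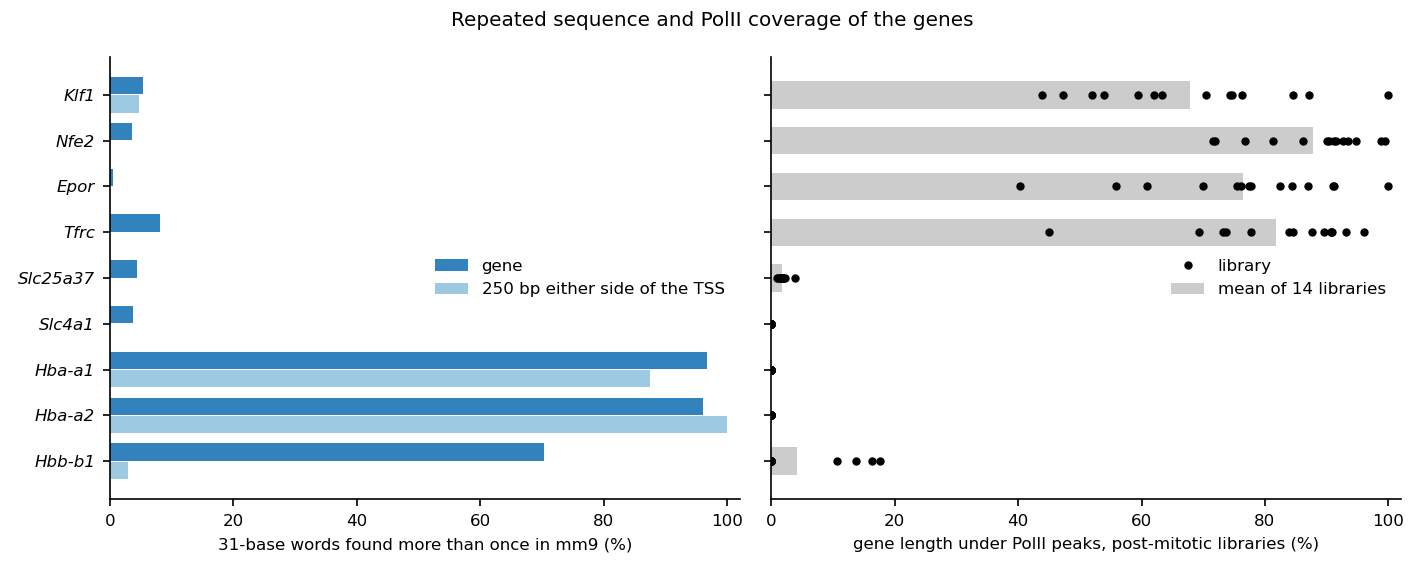
Repeated sequence and PolII coverage of the 9 genes. Left, bars are the percent of 31-base words found more than once in mm9, for the gene and for 250 bp either side of the TSS; right, points are the percent of the gene length under peaks in each of 14 post-mitotic libraries and bars their mean. Hba-a1 and Hba-a2 reach 96.8% and 96.0% repeated words with 0% covered, and Slc4a1 has 3.70% and also 0% covered.

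To ask whether CTCF loss changed PolII at these genes, auxin-treated and control libraries were compared over the 3 post-mitotic stages. None of the 6 genes with a peak within 5 kb in all 14 libraries passed the test (limma, adjusted p under 0.05), where 0.848% of 10733 genes passed. None had an unadjusted p under 0.05 either, as 1068 of the 10733 genes did. With so few genes, this does not set the 6 apart from all genes. With the stages pooled, the condition groups overlapped at all 6 genes, and at 0.522% of genes they did not. Within single stages, of 2 or 3 libraries per condition, they did not overlap at Klf1 in late-G1 and at Epor in mid-G1. At Tfrc and the peak beside Hba-a1 they did not overlap in early-G1 and in late-G1. None of these passed the test (limma, adjusted p of 0.625 or more), and the share of all genes separated within a stage was not counted. The changes were −0.03 ± 0.41 at Klf1, −0.07 ± 0.33 at Nfe2, 0.04 ± 0.19 at Epor, 0.05 ± 0.30 at Tfrc and 0.12 ± 0.21 at Slc25a37 (SE, limma adjusted p between 0.909 and 0.995). The best peak near Klf1 covered the Dnase2a TSS more often in control than in auxin libraries, so this value compares different peaks. For the Klf1 TSS peak the change was −0.03 ± 0.38 (SE, limma adjusted p = 0.992). With summits inside the window it was 1.33 (limma adjusted p = 0.517). The largest was at the peak beside Hba-a1, −0.60 ± 0.35 (95% interval −1.35 to 0.14, limma adjusted p = 0.610).

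The intervals for the mean of the 3 stages show what the libraries could tell together. At Epor the 95% interval ran from −0.37 to 0.44 and at Slc25a37 from −0.34 to 0.57, which leaves out a change of 1, or a rank number 2 times smaller or larger. At Nfe2 it ran from −0.78 to 0.63 and at Tfrc from −0.59 to 0.68, which also leaves out a change of 1. At Klf1 it ran from −0.91 to 0.86, but this interval compares different peaks and does not bound a change at Klf1 itself. For the Klf1 TSS peak it ran from −0.85 to 0.78, and the change was 0.42 without late-G1 control replicate 3. With summits inside the window the change was 1.33, so a change of 1 was not left out at Klf1. For the peak beside Hba-a1 the interval ran from −1.35 to 0.14, so a fall of 1 was not left out there. Within a single stage the intervals were wider. In late-G1 they ran from −0.59 to 2.00 at Nfe2 and from −0.77 to 1.58 at Tfrc, so a rise of 1 in that stage was not left out. For the TSS peaks none of 4 genes passed, against 0.643% of 7154. None had an unadjusted p under 0.05, against 584 of the 7154 genes, which again does not set so few genes apart. The widest TSS interval was at Nfe2, −2.47 to 0.60 around −0.93 (limma adjusted p = 0.770).

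The auxin effect did not pass the test of a difference between stages at any of the 6 genes (limma F test, adjusted p between 0.967 and 0.992, the lowest unadjusted p 0.102 at Klf1), where 0.0186% of 10733 genes passed. From early-G1 to late-G1, 2 of the 6 genes passed by the peak within 5 kb, Nfe2 downward and Hba-a1 upward, against 13.6% of 10733 genes. The early-G1 and late-G1 libraries did not overlap at 3 of 6 (Nfe2, Hba-a1 and Slc25a37, the last not as a percent of the list), against 20.1% of genes. The median change of the 6 genes was −0.10 from early-G1 to late-G1 and 0.01 with auxin, beside 0.00 over all genes in both comparisons.

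**Figure D5:**
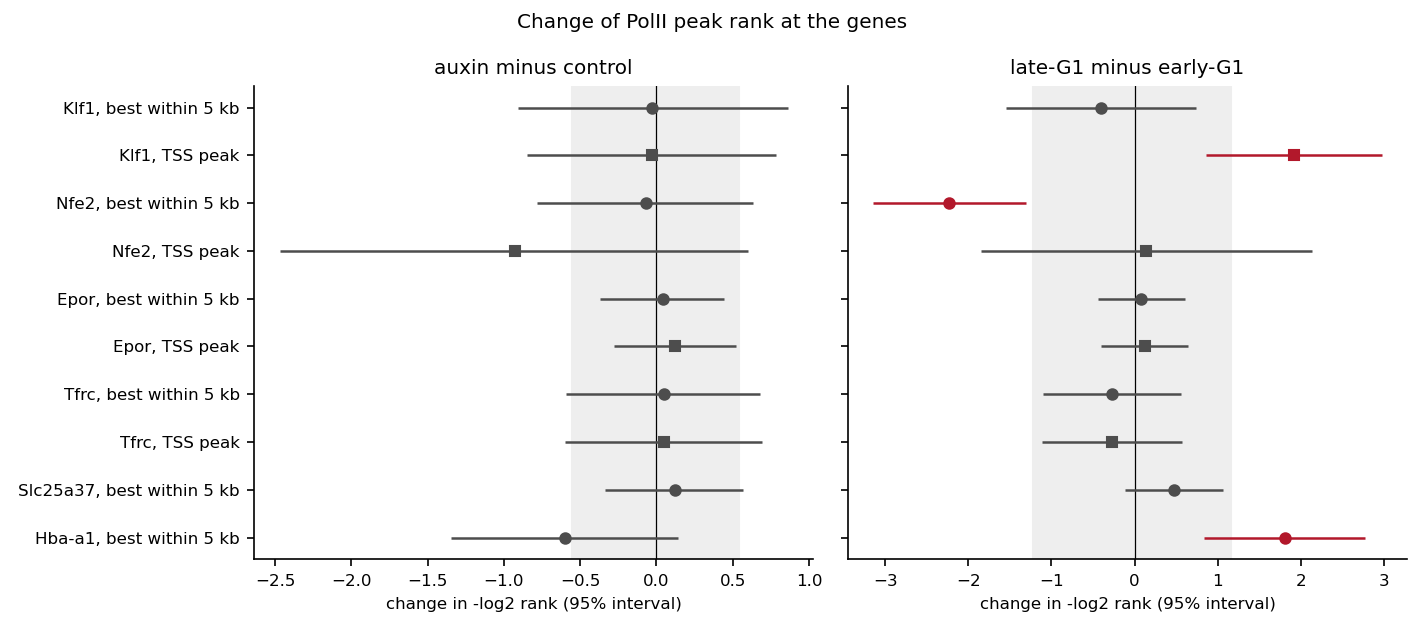
Change in −log2 rank at the 6 genes with a peak in all 14 post-mitotic libraries, with auxin (left) and from early-G1 to late-G1 (right). Circles are the best peak within 5 kb, squares the TSS peak, lines 95% intervals from limma, red marks an adjusted p under 0.05, and the grey band holds the values of all genes from the 5th to the 95th percentile. Red marks are the Klf1 TSS peak, 1.92, the Nfe2 peak, −2.23, and the peak beside Hba-a1, 1.81, whose call is lost under 2 other rank scales; no auxin value is red.

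The course of each gene over the 14 libraries was set beside that of all others, each centred on its own mean. The highest Pearson correlations were 0.956 and 0.944 for Tfrc, with Hnrnph1 and Hsd17b7, and 0.926 and 0.919 for Nfe2, with 6530418L21Rik and Arrdc5. The best peak within 5 kb of Klf1, which covered the Dnase2a TSS in 9 libraries, was most like those of Aldh16a1 and Pih1d1 (0.910 each, both on chromosome 7), Slc25a37 like Svip and Sema6c (0.907 and 0.874), and the peak beside Hba-a1 like Fkbp7 and Plekha3 (0.889 each, both on chromosome 2). Epor was least like any other gene, with 0.794 at Dis3l2 and 0.747 at Lclat1. The equal values at Aldh16a1 and Pih1d1, and at Fkbp7 and Plekha3, could come from a best peak shared within each pair, which was not tested. The correlations describe 14 shared libraries, among which depth and stage also differ, and they were picked as the highest of 10733.

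The other genes of each pathway showed where these genes stood. Of 18 erythroid transcription factors, 15 had a TSS peak in all 14 libraries, against 32.0% of all genes. The best ranks were at Lyl1, Tal1 and Gfi1b, with mean ranks within 5 kb of 268 ± 219, 815 ± 519 and 2127 ± 1026 (SD, n = 14). Late-G1 exceeded early-G1 at Cbfa2t3, a corepressor of the TAL1 complex, by 2.05 ± 0.44 (limma adjusted p = 0.00663), and at Tal1 itself the change was −1.44 ± 0.37 (limma adjusted p = 0.0181), so 1 of 18 passed in each direction, with a list median of 0.19, beside 13.6% of all genes that passed. Gata1, whose active product these cells lack, still had a TSS peak in all 14 libraries at a mean rank of 5890 ± 3113 (SD, n = 14).

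Of 12 genes of erythropoietin signalling, 8 had a TSS peak in all 14 libraries, against 32.0% of all genes. The best mean ranks within 5 kb were 401 ± 268 at Pim1, 1415 ± 706 at Socs3 and 2122 ± 906 at Ptpn6 (SD, n = 14). Pim1, a kinase gene induced by STAT5, rose by 1.96 ± 0.49 (limma adjusted p = 0.0154) from early-G1 to late-G1, and Ptpn6, whose phosphatase binds the erythropoietin receptor, by 1.13 ± 0.33 (limma adjusted p = 0.0320). No other gene of the 12 passed, so that 2 of 12 did beside 13.6% of all genes, and the list median was 0.04.

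Of 12 iron and heme transport genes, 10 had a TSS peak in all 14 libraries, against 32.0% of all genes. The ferritin genes Fth1 and Ftl1 also had one in all 4 prometaphase libraries, as Tfrc did, against 1.87% of all genes. Their mean ranks were 158 ± 137 and 168 ± 25, followed by Aco1 at 1185 ± 458 (SD, n = 14). No gene of this list passed from early-G1 to late-G1 (median 0.10), beside 13.6% of all genes. Hmox1, the heme-degrading oxygenase, was the only gene of all these lists that passed with auxin, higher by 0.97 ± 0.20 (limma adjusted p = 0.0346). Over all genes 0.848% passed with auxin.

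Of the 18 membrane and cytoskeleton genes, 10 had a TSS peak in all 14 libraries, against 32.0% of all genes. The best mean ranks within 5 kb were at Epb4.1 (2769 ± 1307), Ermap (3280 ± 1244) and Icam4 (3823 ± 1194, SD, n = 14). Add2, which encodes beta-adducin, rose by 0.79 ± 0.25 (limma adjusted p = 0.0499) from early-G1 to late-G1. It was the only call among 15 genes tested, beside 13.6% of all genes, and the list median was −0.18. Of the 7 other globin genes none had a TSS peak in all 14 libraries and 5 had no peak within 5 kb in any library, as was so at 42.4% of all genes. Of 12 genes of other organs 2 had a TSS peak in all 14 libraries (Pax6 and Mbp), against 32.0% of all genes. In this list 8 had none within 5 kb in any library, against 42.4% of all genes. The medians with auxin were −0.07, 0.16, 0.06, 0.09 and 0.16 for transcription factors, erythropoietin signalling, iron, membrane and other organs, and from early-G1 to late-G1 0.07 for genes of other organs.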

How the data were processed

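PolII ChIP-seq peaks of 18 libraries were analysed, and 4 input samples were not used directly. According to the methods, the authors aligned reads to mm9 with Bowtie2 2.2.9, removed reads of low mapping quality, duplicates and blacklisted regions (SAMtools 0.1.19, bedtools 2.27.1), and called peaks in each library over the input of its stage with MACS2 2.1.0. The deposited peak lists give the linear fold enrichment over background, a ratio, in column 7. The deposited lists also give the −log10 p-value and −log10 q-value of each peak, and a score, which was not used.

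Peaks were ranked by fold enrichment within each library, and the best peak overlapping a gene or its 5 kb flanks by 1 bp or more was taken. The −log2 rank of genes detected in all 14 post-mitotic libraries (10733, or 7154 for peaks over a TSS) was fitted with limma 3.58.1 in R 4.3.3, 1 mean per stage and condition, with Benjamini-Hochberg adjustment over all genes and a threshold of 0.05. Prometaphase libraries were not tested, since their lists were short. Depth was read from the peak values as reads per kb and is relative. The fit was tested on simulated data for the auxin contrast: 38% of genes changed by 1 and 96% of genes changed by 2 were recovered among 10733 genes, with 13 false calls.

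The genes and lists were chosen with earlier results of these data known. The 9 genes were all named. From each list the 3 genes of best mean rank and every gene past a test were named, with the 2 genes most similar to each of the 6 tested. Gata1, Aqp1, Gp1ba, Pax6 and Mbp were named after their values were seen. Listed symbols that were not found in the annotation were left out. RefSeq promoters (GRCm38.p6) matched 5 of 9 genes and were not placed on mm9. Alternatives covered the rank scale, window, peak threshold, overlap, detection filter, stage, condition, replicate block and each library left out. Python 3.11.15, numpy 2.4.6, pandas 2.3.3, scipy 1.17.1 and matplotlib 3.10.9 were used.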

Additional observations from a re-analysis of the deposited data

Results flagged for a closer look

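The auxin effect differed between the 3 post-mitotic stages at 2 of 10733 genes (limma F test, adjusted p under 0.05), neither of them among the 9 genes, and both are named here after their values were seen. At Ptpmt1 the change in −log2 rank with auxin was −3.93 ± 0.37 in early-G1, 0.53 ± 0.30 in mid-G1 and 0.04 ± 0.37 in late-G1 (SE, F = 47.2, limma adjusted p = 0.00322). At H2afv it was −0.71 ± 0.41, −0.47 ± 0.33 and −4.15 ± 0.41 (SE, F = 27.4, limma adjusted p = 0.0490). Leaving out each library in turn gave 0 to 74 such genes, with 74 without late-G1 control replicate 2.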

How the results depend on the processing

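The number of the 9 genes detected in all post-mitotic libraries was 6 under each peak threshold, overlap and left-out library, 5 over the gene body and 4 over a TSS. Genes called with auxin numbered 91, against 10 with normal scores, 46 over a TSS, 12, 20 and 18 within early-G1, mid-G1 and late-G1, and 43 to 222 without each library (222 without late-G1 control replicate 2, and 44, 52, 43 and 51 without early-G1 control replicates 1 and 2 and auxin replicates 1 and 2). Calls of a difference between stages numbered 2, against 0 with normal scores, centred fold enrichment or summits inside the window, 1 over a TSS or by rank among genes, and 0 to 74 without each library. From early-G1 to late-G1, 1461 genes were called, against 399 with normal scores, 860 over a TSS (873 without late-G1 control replicate 3), 420 in control and 570 in auxin libraries alone, and 861 to 1688 without each library. The cause of these moves was not tested, beyond the fewer genes or libraries that some of them use.

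At Klf1 the auxin change turned from −0.03 to 0.04 by rank among genes, 0.03 by centred fold enrichment, 1.33 with summits inside the window, 0.42 over a TSS without late-G1 control replicate 3, and −0.43 to 0.38 without each library. Without each library it was −0.04 to 0.10 at Epor, −0.18 to 0.20 at Tfrc (−0.01 over a TSS without late-G1 control replicate 3), 0.00 to 0.18 at Slc25a37 (0.00 by centred fold enrichment) and −0.35 to 0.21 at Nfe2. None of these auxin values passed the test (limma). The Klf1 stage change was 1.92 over the gene body or a TSS, 1.23 over a TSS without late-G1 control replicate 3, and −1.01 to 0.20 within 5 kb without each library. At Epor it was −0.05 with normal scores and −0.01 to 0.17 without each library, at Tfrc 0.01 by centred fold enrichment, and at Nfe2 0.14 over a TSS and 0.40 without late-G1 control replicate 3. The Hba-a1 stage call was lost with normal scores (0.72, limma adjusted p = 0.102) and by rank among genes (0.51, limma adjusted p = 0.0662), and ranged from 1.58 to 2.03 without each library. By centred fold enrichment the Nfe2 call was lost and Slc25a37 passed (0.48, limma adjusted p = 0.0242), while the Slc25a37 change was 0.09 (limma adjusted p = 0.859) with normal scores and 0.18 (limma adjusted p = 0.210) by rank among genes. The Nfe2 stage call held without each library, at −2.65 to −1.80. Summits inside the window, and TSS peaks without late-G1 control replicate 3, were alternatives added after seeing the data.

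Libraries with the same replicate number did not deviate together in every stage (r of 0.06 in early-G1, 0.08, 0.13 and 0.29 in mid-G1 and 0.01 in late-G1), so the numbers were not taken as pairs. With a replicate block 63 genes were called with auxin and 3 differed between stages, and the auxin changes were 0.41 at Klf1, −0.55 at Nfe2, −0.55 at Hba-a1, 0.11 at Epor, 0.07 at Slc25a37 and −0.06 at Tfrc, none past the test (limma). The early-G1 to late-G1 change could not be fitted with the block, since blocks lie within stages. In the shallowest library the Slc25a37 TSS peak was not listed, and the part of depth in this was not tested.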
